A study of Homo sapiens with 31 samples.

Results

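The comparison set 2 libraries labelled NC and actinomycin D for 2 h against 2 libraries labelled NC and 0 h, 4 of the 31 samples of the series. Members were chosen by title. NC libraries carry the genotype label WT, and all 4 are labelled PANC-1, an established human pancreatic ductal cancer cell line. The series also holds crosslinking libraries, steady-state RNA-seq, and NC libraries at 4, 6 and 8 h. The same 5 times exist for cells with a knockout (KO) of KHSRP, an RNA-binding protein that binds AU-rich elements and is known to promote mRNA decay. Each genotype and time has 2 libraries. The study's design text gives mRNA lifetime, and the effect of KHSRP on it, as the purpose of the time course. RNA was extracted with TRIzol and the libraries hold polyadenylated RNA. Whether the 2 libraries of a group come from separate cultures is not in the labels. The p-values then cover only the spread between these libraries, and that spread may be technical. They also do not say whether the KO cells are 1 clone.

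Actinomycin D binds DNA and blocks transcription by RNA polymerases, so in a time course under the drug no new mRNA is made and each transcript falls at its own decay rate. Transcripts of immediate early genes, with AU-rich elements in their 3′ ends, are among the shortest-lived. Those of glycolytic enzymes, ribosomal proteins and structural proteins are among the longest-lived. A read count gives a share of the library and not an amount per cell, so a long-lived transcript can gain share while its amount falls. In such bulk RNA, fewer cells and less RNA per cell cannot be told apart.

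Libraries held 22923821 and 25768060 gene counts at NC 2 h, and 23215965 and 22253494 at NC 0 h, within the 19177934 to 25768060 counts of the 20 actinomycin D libraries. KHSRP was at 395 and 415 CPM (counts relative to library size, scaled by the TMM method) in the NC 2 h libraries and 439 and 453 CPM in the NC 0 h libraries. In KO libraries it was at 146 and 151 CPM at 2 h and 139 and 149 CPM at 0 h. Markers were read as plain CPM, counts over the library's total. KRT8 and KRT7, keratins of ductal epithelium, were at 1860 and 646 CPM or more at NC 2 h and 2007 and 784 CPM or more at NC 0 h. KRT19, EPCAM and CDH1, which also define ductal epithelium, had at most 19 counts in any of the 4 libraries. Of 9 immune markers CD68 alone passed 1 CPM, and PTPRC and CD3E were at 0. Of 6 fibroblast markers PDGFRB was at 21.0 to 25.5 CPM and ACTA2 at 1.26 to 2.63 CPM, with PDGFRA at 0. Of 5 endothelial markers CDH5 alone passed 1 CPM, and KDR and TEK were at 0. Pancreatic endocrine markers had at most 4 counts in a library, and the acinar markers PRSS1, AMY2A and CELA3A were at 0. The acinar lipase gene CEL had 31 and 21 counts at NC 2 h and 28 and 25 at NC 0 h, between 0.815 and 1.35 CPM.

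Some values go against the labels. PANC-1 is known to carry a homozygous deletion of CDKN2A, which encodes the cell cycle inhibitors p16 and p14ARF. CDKN2A was at 163 and 187 CPM in the libraries labelled NC 2 h and at 214 and 210 CPM in those labelled NC 0 h. It was at 0 in the KO libraries of both times. The short-lived transcripts were also not highest at the labelled 0 h. FOS, the prototype immediate early gene, averaged 6.80 CPM at NC 0 h, 5.58 at 2 h, 527 at 4 h, 7.45 at 6 h and 5.29 at 8 h. MYC, a short-lived proto-oncogene, averaged 25.8 CPM at 0 h, 32.4 at 2 h, 296 at 4 h, 25.2 at 6 h and 23.7 at 8 h. EGR1 was at 17.1, 17.2, 288, 17.0 and 11.0 CPM at the same 5 times. The groups are therefore called by their labels only, and "2 h" and "0 h" stand for labelled times throughout.

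**Figure D1:**
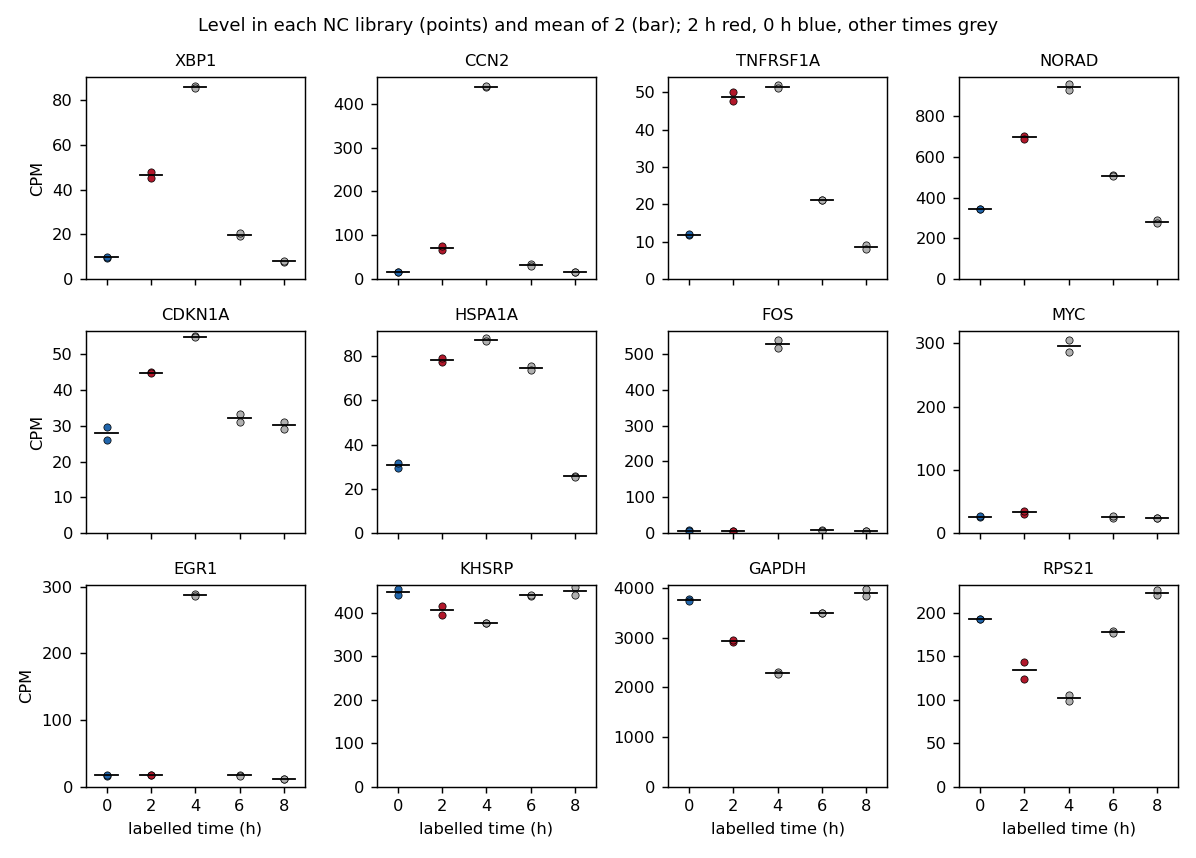
Level of 12 transcripts (CPM, linear axes from 0) in each NC library at the 5 labelled times; points are libraries and bars the mean of 2. XBP1, CCN2, NORAD and HSPA1A were higher at 2 h than at 0 h, FOS, MYC and EGR1 were highest at 4 h, and GAPDH and RPS21 were lower at 2 h than at 0 h on this scale.

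Start-site sequences are shown first for the most uniform group of the comparison, the cytosolic ribosomal protein genes, and for genes with large rises. Most ribosomal protein mRNAs are known to begin with a 5′ terminal oligopyrimidine tract, a C followed by a run of C and T that controls their translation. Each line runs from 10 bases before the annotated start to 20 bases after it, 5′ to 3′ on the transcript strand, from RefSeq on GRCh38.p14. Capitals mark the tract, read from the first transcribed base.
RPS21, chr20:62387093-62387122, plus strand: ctagctgcttCCTTTCTCTCTCgcgcgcgg
RPL39, chrX:119791611-119791640, minus strand: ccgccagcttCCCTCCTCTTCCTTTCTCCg
RPS12, chr6:132814559-132814588, plus strand: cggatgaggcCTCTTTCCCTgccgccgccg
RPLP1, chr15:69452808-69452837, plus strand: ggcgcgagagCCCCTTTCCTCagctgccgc
RPS28, chr19:8321486-8321515, plus strand: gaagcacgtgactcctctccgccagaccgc
XBP1, chr22:28800550-28800579, minus strand: gaggctgggcgctgggcggctgcggcgcgc
CCDC12, chr3:46976482-46976511, minus strand: cgcatgcgcgagaagacggcgccctcccac
NGDN, chr14:23469693-23469722, plus strand: cggaaggggtgggctttgcgaagatggcgg
PIGC, chr1:172444050-172444079, minus strand: gtgcttggccacagtcgcagccccggcgcc
C6orf47, chr6:31660759-31660788, minus strand: gggtccttccagtcctggtgcagctgcttc
These are the 5 ribosomal protein genes with the largest falls and 5 genes with large rises. The latter are from the 6 largest rises among called genes of at least 10 CPM in the higher group with no overlap between groups. The tract was sought as C at the first base and only C or T for at least 5 bases, on the transcript strand alone. It was present in 42 of the 62 ribosomal protein genes with a start in the table (67.7%), in 5.20% of the 12493 tested genes with one, and in 4.04% of all 27305 starts. The start of RPS28 and of the 5 rising genes had none, which says only that these letters are not at the annotated base. Outside the ribosomal protein genes, genes with the tract were called higher in 18.1% and lower in 21.6% of 608 cases. Those without it were called higher in 19.5% and lower in 16.4% of 11823 cases.

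Across the transcriptome, 2985 of 17715 tested genes were called higher at NC 2 h than at NC 0 h (16.9%) and 2642 lower (14.9%), with edgeR's quasi-likelihood test at a Benjamini-Hochberg adjusted p under 0.05. Rises were larger and in less abundant transcripts. The called rises had a median log2 change of 0.67 and a median level of 21.2 CPM, and the called falls had a median of -0.30 and a median level of 117 CPM. A change of at least 1 on the log2 scale was called for 737 genes higher (4.16%) and 58 lower (0.327%). The called-higher genes took 14.5% of all counts at NC 2 h and 9.48% at NC 0 h. The called-lower genes took 56.5% at NC 2 h and 63.5% at NC 0 h. The 50 most abundant genes took 11.1% and 11.3% of counts in the 2 h libraries and 12.7% in each 0 h library.

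The split depended on the scale. With counts scaled to the sum of ribosomal protein gene counts, 6737 genes were called higher and 103 lower, and the median of all genes moved to 0.33 against 0.01 with TMM. That scaling moves nearly every log2 change of the comparison up by about the same amount, so rises remain and falls shrink by construction. Under it all 2985 rises remained, and 103 of the 2642 falls, while 240 of the falls were called higher. On the authors' deposited molecule scale, a log2 value that is a straight line of log2 RPKM within each library, 2620 genes were higher and 152 lower, with a median of 0.14. There 2145 of the 2985 rises remained, and 137 of the falls. In that scale the line of NC 2 h replicate 1 was the steepest of the 20 libraries (slope 1.22, against 1.03 for NC 2 h replicate 2 and 1.08 and 1.06 at NC 0 h). Without that library the molecule scale called 3424 genes higher and 221 lower, with a median of 0.31, and 204 of the falls remained. Where the sign of a molecule-scale value depends on that library, both values are given. The falls given next are shares of the library.

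**Figure D2:**
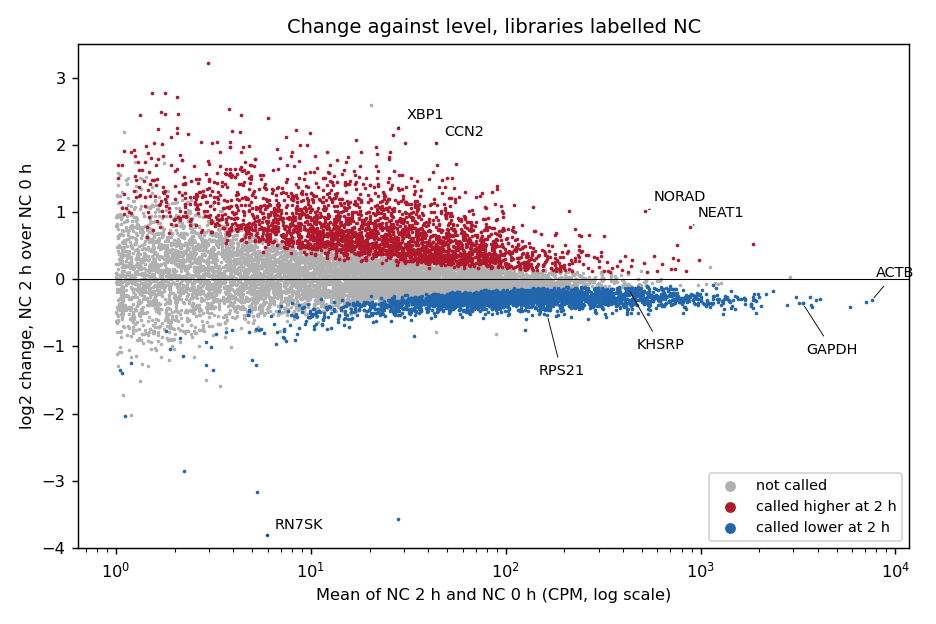
log2 change of NC 2 h over NC 0 h against the mean level of both groups (CPM, log scale) for genes of at least 1 CPM; red and blue points are called genes. The called rises, with a median of 0.67, lie mostly at lower levels, and the called falls, with a median of -0.30, form a band at high levels.

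Among called genes of at least 10 CPM in the higher group with no overlap between groups, the largest rise was in CCDC12, a spliceosome-associated protein. It was at 10.2 and 10.1 CPM in NC 2 h libraries and 2.47 and 1.36 CPM in NC 0 h libraries, a log2 change of 2.40 (SE 0.26, adjusted p = 7.61e-10). XBP1, the transcription factor of the unfolded protein response, followed. Its gene lies at chr22:29190548-29196557 on hg19, minus strand, with 5 exons. XBP1 was at 47.9 and 45.2 CPM in NC 2 h libraries and 9.37 and 10.1 CPM in NC 0 h libraries, a log2 change of 2.26 (SE 0.13, adjusted p = 2.24e-17). Absence of overlap between the groups was a condition of this choice. It held for 61.2% of all tested genes, with 2 h higher in 32.3% and lower in 28.9%. For CCDC12 and XBP1 the log2 changes were 2.72 and 2.58 on the ribosomal protein scale and 2.78 and 2.64 on the molecule scale. At the labelled 4 h both were higher still, XBP1 at 86.3 and 85.2 CPM and CCDC12 at 26.0 and 25.7 CPM.

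The other 10 of the 12 largest rises included ribosome biogenesis, receptor and m6A genes. MPHOSPH10, a small-subunit processome protein, was at 42.5 and 43.4 CPM at NC 2 h and 9.50 and 9.998 CPM at NC 0 h (log2 change 2.14, SE 0.12). NGDN, another ribosome biogenesis factor, was at 11.5 and 12.7 CPM at NC 2 h and 2.91 and 2.67 CPM at NC 0 h. TNFRSF1A, the main receptor of tumour necrosis factor, was at 47.62 and 50.04 CPM at NC 2 h and 11.8 and 12.1 CPM at NC 0 h (log2 change 2.03, SE 0.11, adjusted p = 2.39e-18). FADD, the adaptor of death receptors, was at 14.5 and 13.7 CPM at NC 2 h and 3.36 and 3.66 CPM at NC 0 h. In each of these genes both 2 h libraries were above both 0 h libraries, as the choice required. CCN2, a secreted matrix protein induced by YAP and TGF-beta, was at 66.0 and 74.7 CPM at NC 2 h and 17.1 and 17.3 CPM at NC 0 h (log2 change 2.03, SE 0.08). YTHDF2, the m6A reader that recruits the CCR4-NOT deadenylase, was at 33.7 and 34.9 CPM at NC 2 h and 9.55 and 7.98 CPM at NC 0 h. Also among them were PIGC, a subunit of the enzyme that starts GPI anchor synthesis, C6orf47, the Golgi protein TMEM115 and the mitochondrial RNA protein FASTKD5, with log2 changes of 1.99 to 2.23.

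Large falls were few, and the leading ones rest on doubtful counts. RN7SK, the 7SK RNA that holds P-TEFb inactive, is not polyadenylated. It had 19 and 21 counts in NC 2 h libraries and 219 and 264 counts in NC 0 h libraries (log2 change -3.81, SE 0.33, adjusted p = 4.17e-12). Its level at NC 8 h was 34.2 CPM, so it varied widely between labelled times. SLC25A6, a mitochondrial ADP/ATP carrier gene listed on both X and Y, was at 4.12 and 4.55 CPM at NC 2 h and 97.4 and 5.30 CPM at NC 0 h. Its log2 change of -3.56 (SE 0.96, adjusted p = 0.0151) came from NC 0 h replicate 1 and was -0.29 and not called without that library. Near-identical copies make this gene, and the pseudogene HNRNPA1P7 (log2 change -0.84), uncertain. The other 9 of the 12 largest falls had log2 changes of -0.90 to -0.69. CLDN15, a tight junction claudin, led them at 5.21 and 6.41 CPM at NC 2 h and 10.7 and 11.0 CPM at NC 0 h. Leaving out single libraries ended the calls of APOBEC3B-AS1, BCAS4 and CPLX1, with adjusted p up to 0.17, 0.095 and 0.38.

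Of 32 immediate early genes 10 rose (31.25%, against 16.9% over all genes), 1 fell and 21 were not called. Their median log2 change was 0.37 against 0.01 over all genes. CCN1, a matricellular partner of CCN2, was at 17.8 and 20.8 CPM at NC 2 h and 8.61 and 7.32 CPM at NC 0 h (log2 change 1.28). NAB2, a co-repressor of EGR1, was at 16.6 and 15.6 CPM at NC 2 h and 6.10 and 7.74 CPM at NC 0 h (log2 change 1.22). JUND, NR4A1, NR4A3, PLK2, RHOB, FOSL2 and SIK1 also rose, by 0.58 to 1.15, and FOSB fell by 0.48. The classical members did not pass the test. FOS was at 5.79 and 5.37 CPM at NC 2 h and 7.22 and 6.38 CPM at NC 0 h (log2 change -0.29, SE 0.14, adjusted p = 0.121). JUN was at 12.2 and 14.7 CPM at NC 2 h and 12.6 and 17.4 CPM at NC 0 h, and EGR1 at 17.3 and 17.1 CPM at NC 2 h and 16.3 and 17.8 CPM at NC 0 h. For both the libraries of the groups overlapped. Summed over the list, these genes took 0.0851% and 0.0867% of counts at NC 2 h and 0.0552% and 0.0575% at NC 0 h, against 0.493% and 0.478% at NC 4 h.

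Krüppel-like factors and ERK feedback genes moved in 1 direction where they were called. Of 12 tested KLF genes 5 rose (41.7%, against 16.9% over all genes) and 0 fell. KLF5 was at 19.79 and 19.97 CPM at NC 2 h and 7.49 and 7.04 CPM at NC 0 h (log2 change 1.45). KLF4 was at 22.8 and 27.0 CPM at NC 2 h and 11.6 and 10.9 CPM at NC 0 h (log2 change 1.15). Of 17 dual-specificity phosphatases, Sprouty genes and other ERK feedback genes 7 rose (41.2%) and 0 fell, with a median of 0.61. ERRFI1, an inhibitor of the EGF receptor, was at 15.1 and 11.6 CPM at NC 2 h and 5.47 and 6.24 CPM at NC 0 h (log2 change 1.18). DUSP14 rose by 0.98 and SPRED2, an inhibitor of the RAS to RAF step, by 0.94. Of 14 ID, HES and TGF-beta feedback genes 6 rose (42.9%). BAMBI, a decoy TGF-beta receptor, rose by 3.22, ID3 by 1.5 and TGIF2 by 1.29. BAMBI was at 4.37 and 6.37 CPM at NC 2 h and 0.58 and 0.56 CPM at NC 0 h. ID1 fell by 0.43.

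NF-kappaB, MYC network and survival genes were mostly higher where called. Of 15 NF-kappaB genes 6 rose (40.0%, against 16.9% over all genes) and 1 fell. RELA, a subunit, was at 74.2 and 78.5 CPM at NC 2 h and 56.6 and 56.9 CPM at NC 0 h (log2 change 0.43). BIRC3, an inhibitor of apoptosis induced by NF-kappaB, rose by 0.48, but was not called without NC 2 h replicate 1 (adjusted p = 0.0512). Of 11 MYC network genes 4 rose (36.4%) and 1 fell. MGA, a MAX partner, rose by 0.86. MYC itself was at 30.2 and 34.6 CPM at NC 2 h and 25.4 and 26.2 CPM at NC 0 h (log2 change 0.33, SE 0.10, adjusted p = 0.0099), and was not called without NC 2 h replicate 2 or without NC 0 h replicate 1. MCL1, a short-lived survival factor, was at 149 and 141 CPM at NC 2 h and 117 and 112 CPM at NC 0 h (log2 change 0.34, adjusted p = 7.72e-07), and BCL2L1 rose by 0.54. BCL2, which rose by 1.11, was not called without NC 2 h replicate 1 or NC 0 h replicate 1. MCL1, BCL2L1 and BCL2 were the 3 rises among 15 BCL2 family genes, a share near the 16.9% over all genes. BID was the 1 called fall of that list (log2 change -0.22, adjusted p = 0.046), and 11 were not called. Of 24 tested cytokines and growth factors with AU-rich transcripts 5 rose (20.8%, near the 16.9% over all genes) and 1 fell. GDF15 rose by 1.16, CSF1 by 0.67 and VEGFA by 0.49. Of 23 tested p53 targets 12 rose (52.2%) and 0 fell, with a median of 0.37. CDKN1A, which encodes the cyclin-dependent kinase inhibitor p21, was at 45.1 and 44.7 CPM at NC 2 h and 29.7 and 26.1 CPM at NC 0 h (log2 change 0.68, SE 0.09). PPM1D, a phosphatase that acts on p53, rose by 1.19, the death receptor FAS by 1.26 and GADD45A by 0.77. MDM2, the ligase that degrades p53, rose by 0.29 and was not called without NC 2 h replicate 2.

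**Figure D3:**
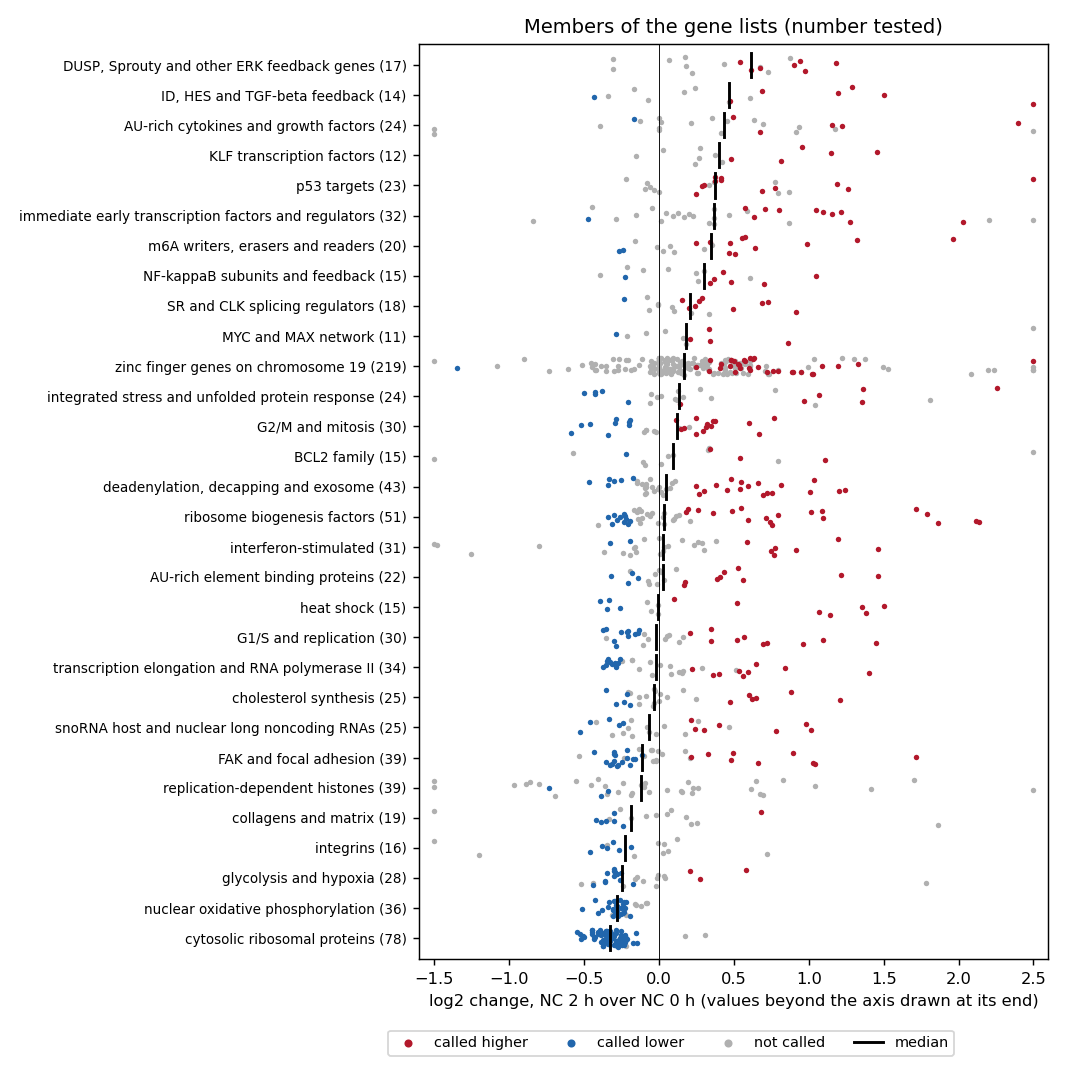
Each point is a tested gene of a list, placed by its log2 change of NC 2 h over NC 0 h; colours give the call and black bars the list medians, which run from -0.32 for cytosolic ribosomal proteins to 0.61 for ERK feedback genes, with all genes at 0.01. On the ribosomal protein scale the median of all genes is 0.33, and most called falls of the lower lists are not called.

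Genes that bind or degrade mRNA gave calls in both directions with TMM. On the ribosomal protein and molecule scales 0 genes of the decay, m6A and AU-rich binding lists were called lower. On the ribosomal protein scale 34, 17 and 18 of them were called higher. Of 43 genes of deadenylation, decapping and the exosome 18 rose (41.9%, against 16.9% over all genes) and 6 fell, with a median of 0.05 against 0.01. CNOT8, a catalytic subunit of the CCR4-NOT deadenylase, was at 60.5 and 58.2 CPM at NC 2 h and 27.0 and 24.6 CPM at NC 0 h (log2 change 1.20, SE 0.12). TOB1, an adaptor of CCR4-NOT, rose by 1.04 and CNOT6L, another of its deadenylases, by 1.01. The fallers were PAN2, EXOSC5, UPF1, PARN, SKIC3 and XRN2, by 0.17 to 0.47. Of 20 m6A genes 11 rose (55.0%) and 2 fell, with a median of 0.35. Among readers, YTHDF1 was at 51.6 and 53.4 CPM at NC 2 h and 21.0 and 20.9 CPM at NC 0 h (log2 change 1.33), and YTHDF3 rose by 0.55. Among subunits of the writer complex, RBM15B rose by 0.99, ZC3H13 by 0.58, WTAP by 0.47 and VIRMA by 0.25, and the eraser ALKBH5 rose by 0.51. Of 22 AU-rich element and related 3′ UTR binding proteins 9 rose (40.9%) and 4 fell, with a median of 0.02. PUM2, a Pumilio repressor, was at 78.7 and 82.0 CPM at NC 2 h and 37.97 and 31.12 CPM at NC 0 h, with no overlap (log2 change 1.22).

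KHSRP itself was among the 4 falls of that list, with a log2 change of -0.14 (SE 0.04, adjusted p = 0.0104). The call was lost without NC 2 h replicate 1 and without NC 0 h replicate 2 (adjusted p up to 0.17), and the direction was the opposite on the ribosomal protein scale (0.19) and the molecule scale (0.16, or 0.01 without NC 2 h replicate 1). FUBP3, its relative, was at 209 and 214 CPM at NC 2 h and 242 and 246 CPM at NC 0 h (log2 change -0.21), with 0.12 on the ribosomal protein scale and 0.07 on the molecule scale, or -0.06 without NC 2 h replicate 1. FUBP1, another relative, was at 246 and 262 CPM at NC 2 h and 258 and 254 CPM at NC 0 h (log2 change -0.01, adjusted p = 0.92), with overlapping libraries.

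Among regulators of transcription and splicing, 9 of 34 RNA polymerase II and elongation genes rose and 11 fell. These were 26.5% and 32.4%, against 16.9% and 14.9% over all genes. CDK7, the kinase of TFIIH, was at 39.6 and 36.0 CPM at NC 2 h and 13.0 and 15.6 CPM at NC 0 h (log2 change 1.40). CDK9 and CCNT1, the subunits of P-TEFb, rose by 0.59 and 0.40, and HEXIM1, its inhibitor, by 0.53. POLR2C, POLR2E, POLR2F, POLR2G, POLR2I and POLR2J, subunits of the polymerase, fell by 0.28 to 0.35. POLR2D, also a subunit, rose by 0.65 (adjusted p = 4.32e-07). On the ribosomal protein and molecule scales 0 of the 34 genes were called lower, and 1 on the molecule scale without NC 2 h replicate 1. Of 18 SR and CLK splicing regulators 9 rose and 1 fell, with CLK3 rising by 0.92 and SRSF5 by 0.73.

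Long noncoding RNAs were mixed. NORAD, a cytoplasmic RNA that binds Pumilio proteins, comes from a single exon of 5343 bases at chr20:34633540-34638882 on hg19, minus strand. It was at 703 and 688 CPM at NC 2 h and 346 and 343 CPM at NC 0 h (log2 change 1.01, SE 0.04, adjusted p = 4.06e-21). NEAT1, the scaffold of paraspeckles, was at 1112 and 1110 CPM at NC 2 h and 650 and 643 CPM at NC 0 h (log2 change 0.78, SE 0.04), while its mean at NC 4 h was 894 CPM. NEAT1 was higher at NC 2 h than at NC 4 h (log2 difference 0.31, SE 0.04, adjusted p = 1.16e-08), a test chosen after the values were seen. MALAT1, the abundant nuclear RNA, fell by 0.53. Of the 25 listed snoRNA hosts and nuclear RNAs 7 rose and 5 fell with TMM, both shares above the 16.9% and 14.9% over all genes. Most of these falls depended on the scale. On the ribosomal protein scale 11 of the 25 were higher and 1 lower, and on the molecule scale 8 and 1. SNHG3 rose by 0.98, and SNHG6 and ZFAS1 fell by 0.46 and 0.34.

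Stress genes gave calls in both directions. Of 15 heat shock genes 7 rose (46.7%) and 4 fell (26.7%), against 16.9% and 14.9% over all genes. HSPA1B, an inducible HSP70, was at 74.9 and 72.7 CPM at NC 2 h and 26.6 and 25.5 CPM at NC 0 h (log2 change 1.501, SE 0.10). HSPA1A, its near-identical neighbour with which it can share reads, was at 77.4 and 79.1 CPM at NC 2 h and 29.4 and 31.7 CPM at NC 0 h (log2 change 1.36). DNAJB1, an HSP40 co-chaperone, rose by 1.38 and BAG3 by 1.14. The chaperonin pair HSPD1 and HSPE1 and both HSP90 genes fell, by 0.26 to 0.39, and 0 of the 15 were called lower on either other scale, but 2 on the molecule scale without NC 2 h replicate 1. Of 24 genes of the integrated stress and unfolded protein responses 6 rose and 5 fell. TRIB3, a pseudokinase induced by ATF4, rose by 1.36, CEBPB by 1.36 and HERPUD1 by 1.07. PDIA4, PDIA6 and HSP90B1, folding proteins of the endoplasmic reticulum, fell by 0.42 to 0.50. Of 31 tested interferon-stimulated genes 7 rose (22.6%, near the 16.9% over all genes) and 2 fell, with a median of 0.03, IFIT5 rising by 1.46 and the ligase TRIM21 by 1.19.

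Cell cycle lists held calls in both directions with TMM. Of 30 G1/S and replication genes 10 rose (33.3%) and 11 fell (36.7%), against 16.9% and 14.9% over all genes. CDC25A, the phosphatase that activates CDK2, was at 22.6 and 21.0 CPM at NC 2 h and 6.86 and 9.11 CPM at NC 0 h (log2 change 1.45). CDT1, the licensing factor, rose by 1.09 and CCNE1 by 0.96. TK1, TYMS, CDK4 and CCND1 fell by 0.29 to 0.37. On the ribosomal protein scale 23 of the 30 were higher and 0 lower, and on the molecule scale with all libraries 14 and 0. Of 30 G2/M genes 14 rose (46.7%) and 9 fell (30.0%), with 2 called lower on the ribosomal protein scale and 3 on the molecule scale. TTK, the spindle checkpoint kinase, rose by 0.77, AURKA by 0.67 and the kinesin KIF23 by 0.60, and BIRC5, which encodes survivin, fell by 0.59. Of 51 ribosome biogenesis factors, a list drawn up after the values were seen, 19 rose (37.25%) and 11 fell (21.57%). The rises included IMP3 by 1.86, RRS1 by 1.79 and WDR43 by 1.72, and the falls NOP58 by 0.34, NPM1 by 0.26 and NCL by 0.23. On the ribosomal protein scale 39 of the 51 were higher and 0 lower, and on the molecule scale 24 and 0.

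Housekeeping families held many falls on the TMM scale, most of which were not called on the other scales. Falls were frequent among abundant genes at large. At 100 CPM or more, 63.3% of 2266 protein-coding genes with over 1 exon were called lower, against 15.8% of 6333 at 10 to 100 CPM. Neither these lists nor those of glycolysis and adhesion below were matched for level, and the shares over all genes are not either. Of 78 cytosolic ribosomal protein genes 74 fell (94.9%, against 14.9% over all genes) and 0 rose. Their median of -0.32 was 0.00 on the scale built from these same genes and 0.08 on the molecule scale. On the molecule scale 2 of them were called lower, but without NC 2 h replicate 1 the median was -0.28 and 21 were called lower. RPS21 was at 143.8 and 123.4 CPM at NC 2 h and 192 and 193 CPM at NC 0 h (log2 change -0.53, SE 0.06, adjusted p = 8.43e-09). RPL39 was at 177 and 149 CPM at NC 2 h and 236 and 232 CPM at NC 0 h, and RPS28 at 38.3 and 32.3 CPM at NC 2 h and 52.7 and 50.1 CPM at NC 0 h. The 0 h libraries were above both 2 h libraries for each of them. Of 36 nuclear genes of oxidative phosphorylation 28 fell (77.8%) and 0 rose, with a median of -0.28. On the ribosomal protein scale 2 were higher and 0 lower, with a median of 0.05. The molecule-scale median was 0.03, or -0.14 without NC 2 h replicate 1. NDUFA2 of complex I was at 27.0 and 26.1 CPM at NC 2 h and 38.3 and 37.7 CPM at NC 0 h (log2 change -0.52). UQCRQ of complex III fell by 0.43 and COX5B of complex IV by 0.41.

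Of 28 glycolysis and hypoxia genes 13 fell (46.4%) and 3 rose (10.7%), against 14.9% and 16.9% over all genes. The median was -0.25. On the ribosomal protein scale 7 were higher and 0 lower, with a median of 0.07. The molecule-scale median was 0.04, or -0.04 without NC 2 h replicate 1. GAPDH was at 2910 and 2948 CPM at NC 2 h and 3770 and 3739 CPM at NC 0 h (log2 change -0.36, SE 0.03), with -0.03 on the ribosomal protein scale and 0.15 on the molecule scale, or -0.42 without NC 2 h replicate 1. ENO1, the enolase, fell by 0.36, with 0.10 on the molecule scale and -0.38 without that library. ALDOC fell by 0.44, a call lost when 3 of the 4 libraries were left out in turn. SLC2A3, a glucose transporter, rose by 0.58. ACTB was at 6426 and 7051 CPM at NC 2 h and 8292 and 8480 CPM at NC 0 h (log2 change -0.32), with 0.01 and 0.25 on the ribosomal protein and molecule scales, the second being -0.37 without NC 2 h replicate 1. Of 25 cholesterol synthesis genes 6 rose and 5 fell, shares not far above the 16.9% and 14.9% over all genes. Their median was -0.03, against 0.01 over all genes. HSD17B7 rose by 1.21 and SQLE, an early rate-limiting oxygenase, by 0.88.

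Adhesion genes also gave calls in both directions. Of 16 integrins 6 fell (37.5%, against 14.9% over all genes) and 0 rose, with a median of -0.23. But on the ribosomal protein scale 5 were higher and 1 lower, with a median of 0.10. ITGB1, the beta1 subunit, was at 1104 CPM in both NC 2 h libraries and 1416 and 1451 CPM in NC 0 h libraries (log2 change -0.38, SE 0.03), with -0.05 on the ribosomal protein scale and -0.01 on the molecule scale, or -0.34 without NC 2 h replicate 1. ITGAV was at 221 CPM in both NC 2 h libraries and 257 and 247 CPM in NC 0 h libraries (log2 change -0.19), with 0.14 on the ribosomal protein scale and 0.03 on the molecule scale, or -0.01 without NC 2 h replicate 1. Of 39 focal adhesion genes 9 rose (23.1%) and 17 fell (43.6%), against 16.9% and 14.9% over all genes. The risers were signalling proteins, PIK3R1 by 1.72, the adaptors BCAR1 by 1.04 and CRKL by 1.02, SRC by 0.89, CRK, SOS1, FYN, ROCK2 and PIK3CB. The fallers included the structural proteins FLNA, TLN1, ACTN1 and VCL, by 0.21 to 0.30, and 0 of the 39 were called lower on either other scale. PTK2, focal adhesion kinase, was at 85.1 and 89.7 CPM at NC 2 h and 91.7 and 95.7 CPM at NC 0 h (log2 change -0.10, adjusted p = 0.215, with 0.22 on the ribosomal protein scale). MET, a receptor kinase, had a log2 change of -0.09 (adjusted p = 0.152, with 0.23 on the ribosomal protein scale). Of 19 tested collagen and matrix genes 6 fell (31.6%) and 1 rose (5.26%). COL6A1, COL4A1 and COL4A2 led the falls with -0.42, -0.39 and -0.36. On the ribosomal protein scale 8 of the 19 were higher and 0 lower. Of 39 tested of 67 listed replication-dependent histone genes, whose mRNAs mostly lack a poly(A) tail, 3 fell and 0 rose. Both shares, 7.69% and 0%, were below the 14.9% and 16.9% over all genes. H2BC12 fell by 0.34, and the calls of H1-2 and H2BC4 were lost when single libraries were left out.

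Rises were more frequent in single-exon genes. Of 307 tested protein-coding genes with a single exon 122 were called higher (39.7%) and 5 lower (1.63%), against 19.5% and 18.1% of all 13930 protein-coding genes. The median log2 change was 0.56 for single-exon genes and 0.00 for all. The difference remained within a band of level. At 10 to 100 CPM 71.9% of 96 single-exon genes and 27.9% of 6333 genes with more exons were called higher. Genes of 2 to 4 exons were called higher in 26.3% of cases, and those of 20 or more in 17.8%. On the ribosomal protein scale the shares called higher were 51.5% for single-exon genes and 44.3% for all, and the medians 0.88 and 0.32. On that scale 44.9% were called higher for 2 to 4 exons and 48.1% for 20 or more, but the medians kept their order. They were 0.52 and 0.29 there, and 0.19 and -0.02 with TMM. The median levels of these 2 classes were 6.85 and 34.3 CPM. By length of the merged exons, 11.2% of the 3485 shortest genes and 26.8% of the 3483 longest were called higher. The 219 tested zinc finger genes of chromosome 19, mostly KRAB repressors known for short-lived mRNAs, held 33 rises (15.1%, no more than the 16.9% over all genes) and 1 fall, with a median of 0.17. ZNF146 was at 91.5 and 89.0 CPM at NC 2 h and 41.5 and 47.3 CPM at NC 0 h (log2 change 1.02).

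**Figure D4:**
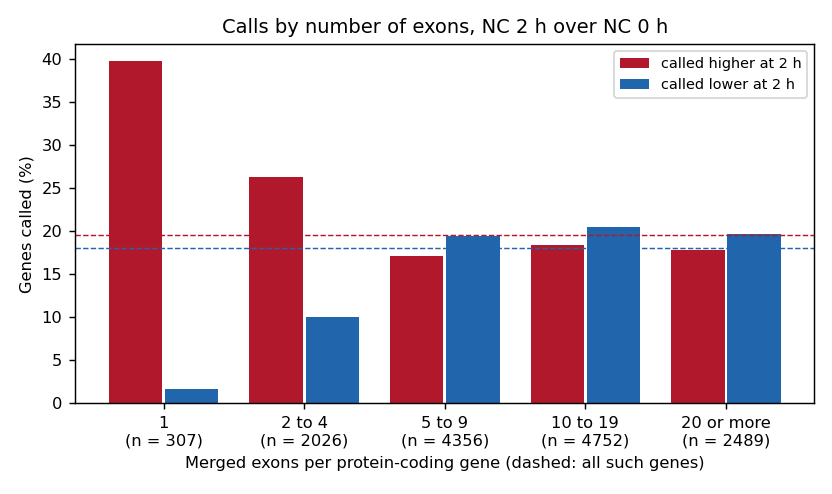
Share of protein-coding genes called higher (red) or lower (blue) at NC 2 h against NC 0 h, by number of merged exons; dashed lines give the shares over all such genes, 19.5% and 18.1%. Single-exon genes stand at 39.7% higher and 1.63% lower.

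The libraries labelled KO gave a different contrast between the same labelled times. Some levels already differed widely at 0 h. KRT7 averaged 817 CPM at NC 0 h and 10.9 at KO 0 h, ITGA3 196 and 2018, and CDKN2A 212 and 0. Others were close, as FUBP1 at 256 and 244 CPM. KO 2 h against KO 0 h, which shares no library with the NC comparison, called 1622 of 17715 genes (9.16%), 862 higher (4.87%) and 760 lower (4.29%). Of the 2985 genes higher at NC 2 h, 9 were also called higher at KO 2 h (0.30% of the NC list and 1.04% of the KO list) and 598 were called lower there (20.03% of the NC list). Of the 2642 genes lower at NC 2 h, 7 were called lower at KO 2 h and 704 higher (26.6% of the NC list). The test of the difference, the NC change minus the KO change, called 5375 genes (30.3%), 2709 of them with a higher change in NC.

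The genes named above show the size of this difference. XBP1 was at 7.83 and 5.41 CPM at KO 2 h and 12.6 and 11.0 CPM at KO 0 h, so its log2 change was 2.26 in NC and -0.84 in KO (difference 3.10, SE 0.19, adjusted p = 6.84e-16). TNFRSF1A was at 19.98 and 22.82 CPM at KO 2 h and 44.4 and 39.8 CPM at KO 0 h, a log2 change of 2.03 in NC and -0.98 in KO (difference 3.01, SE 0.15). NORAD changed by 1.01 in NC and -0.64 in KO. RPS21 was at 128 and 129 CPM at KO 2 h and 80.7 and 94.8 CPM at KO 0 h, with a log2 change of -0.53 in NC and 0.55 in KO (difference -1.08, SE 0.09). HSPA1A changed by 1.36 in NC, and its KO value of -0.07 did not pass the test. Of the 78 ribosomal protein genes 46 were called higher at KO 2 h and 0 lower. In the KO set the short-lived transcripts were highest at the labelled 6 h, where the immediate early genes took 0.384% of counts in each library, against 0.0562% and 0.0587% at KO 0 h. How far the order of labelled times bears on the difference between NC and KO was not tested. Nor was the knockout tested apart from the differences in level at 0 h.

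**Figure D5:**
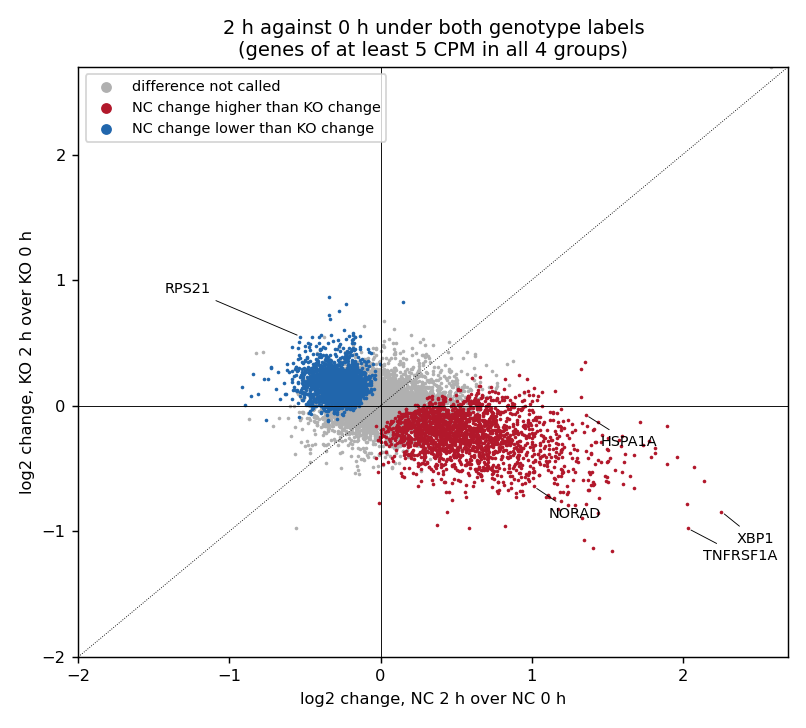
log2 change of 2 h over 0 h in NC (horizontal) and KO (vertical) for the 9438 genes of at least 5 CPM in all 4 groups; coloured points are genes whose change differed between NC and KO. Red points lie to the right and mostly below 0 in KO, as for XBP1 (2.26 and -0.84), and blue points to the left and mostly above 0, as for RPS21 (-0.53 and 0.55).

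The NC libraries at other labelled times share the 0 h libraries with this comparison, so only each comparison's own values are set side by side. Against NC 0 h, 9120 genes were called at 4 h (51.5%), 783 at 6 h (4.42%) and 568 at 8 h (3.21%), beside the 5627 at 2 h (31.8%). XBP1 averaged 9.73 CPM at 0 h, 46.5 at 2 h, 85.8 at 4 h, 19.9 at 6 h and 7.91 at 8 h. NORAD averaged 344, 696, 944, 508 and 283 CPM at the same times, and GAPDH 3754, 2929, 2292, 3497 and 3906 CPM. TNFRSF1A was at 48.8 ± 1.7 CPM at 2 h and 51.5 ± 0.5 CPM at 4 h (SD, n = 2 each). The difference between those 2 times did not pass edgeR's test, with a log2 difference of -0.08 (SE 0.09, adjusted p = 0.595). For FOS the log2 difference between 2 h and 4 h was -6.56 (SE 0.11, adjusted p = 9.90e-37). For XBP1, NORAD and GAPDH the 2 h mean lay between the 0 h and 4 h means.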

How the data were processed

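Each sample took its group, labelled time and replicate from its title. The submitters' processing notes name STAR, RSEM, Bowtie2, deepTools and hg19 without roles, and no source used here gives the annotation or the use of strand. For each of 43682 genes the deposited tables, per the file headers, hold counts, RPM and a log2 molecule value from the authors. RPM served only to recover its denominator, of which genes held 43.1% to 46.5% per library. Counts over mitochondrial genes summed to 0 in all 20 libraries. That sum is also 0 if no such gene is listed, which was not checked. For 408 genes the name was updated, and 939 unmatched names were kept.

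Counts of 20 libraries were fitted with edgeR 4.0.16 in R 4.3.3: filterByExpr (17715 genes), TMM, one mean per genotype and time, robust quasi-likelihood F test, Benjamini-Hochberg adjustment. SE is the absolute log2 change over the square root of F. Levels are TMM-scaled CPM. The fit was tested on simulated data. No pair of libraries agreed within sampling noise (chi-square per degree of freedom 3.90 to 5.30). Deviations of same-numbered libraries correlated at -0.155 to 0.094, so numbers were not used as pairs. These values do not show that the libraries were unpaired. Alternatives used DESeq2 1.42.0 and limma 3.58.1 (molecule values).

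The comparison, lists and rules were chosen with earlier results of these data known. Named genes were, among called genes of at least 10 CPM with no overlap, the 12 largest rises and falls; per list, the 3 largest called changes of at least 5 CPM; 17 set genes; and the 5 largest NC minus KO differences each way. Further called list members were named after their values were seen. Samples other than the actinomycin D set were not analysed here. A few genes that these rules select are not reported here.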

Additional observations from a re-analysis of the deposited data

Results flagged for a closer look

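The 2 h change differed between NC and KO, by the test of the difference itself, for 5375 genes (30.3% of those tested). Among the 5 highest and 5 lowest differences with at least 10 CPM in some group, each of the 10 genes had 0 counts in both libraries of at least 1 of the 4 groups. The fitted log2 differences given here depend on the prior count and are no bound.

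ZNF595 had a difference of 6.87. It had 17 and 21 counts at NC 2 h and 0 at NC 0 h, against 314 and 390 counts at KO 2 h and 287 and 244 at KO 0 h. CFAP20DC had a difference of 6.02, from 0 and 20 counts at NC 2 h and 0 at NC 0 h, against 243 and 248 counts at KO 2 h and 183 and 205 at KO 0 h. IL1R1, an interleukin-1 receptor, had a difference of 5.71, from 10 and 4 counts at NC 2 h and 0 at NC 0 h, against 434 and 421 counts at KO 2 h and 458 and 318 at KO 0 h. In these 3 genes the KO libraries held more counts than any NC library.

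For ABCB1, a drug efflux pump, the difference was 6.31, with 0 counts at KO 2 h and 18 and 0 at KO 0 h. NR4A1AS had a difference of 6.03, with 0 counts at KO 2 h and 4 and 3 at KO 0 h. The lowest were RN7SK at -11.4, with 24 and 22 counts at KO 2 h and 0 at KO 0 h, PASD1 at -6.02, with 12 and 2 counts at KO 2 h, ELAPOR2 at -5.48, with 6 and 4, NPNT at -5.39, with 0 and 8, and NEURL1 at -5.18, with 9 and 0. All 5 had 0 counts at KO 0 h. ABCB1, PASD1, ELAPOR2, NPNT and NEURL1 had at least 311 counts in every NC library of the comparison.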

How the results depend on the processing

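Scaling moved the counts most. Against 2985 genes higher and 2642 lower, the ribosomal protein scale gave 6737 and 103. The molecule scale gave 2620 and 152, and 3424 and 221 without NC 2 h replicate 1, a setting chosen after the data were seen. The difference between NC and KO, 5375 genes, came to 9105 on the molecule scale and 10260 without that library. RLE factors, DESeq2, other filters, fewer libraries in the fit and omission of the NC 4 h and KO 6 h libraries kept the counts within 1.5 times. Leaving out 1 of the 4 libraries gave 2297 to 2408 higher, 1987 to 2097 lower and 4715 to 4835 for the difference, with the lone library assumed to vary like other groups. With replicate number as a block, 2948 genes were higher, 2609 lower and 5353 differed; the numbers were not shown to pair the samples.

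For named genes, 1923 of the recomputed values kept the call, 126 lost the call and 21 gained it. A turned direction was counted only where the main or the recomputed value was called. Turns without a call stayed among the 1923, as for JUN on the ribosomal protein scale (-0.15 with TMM, 0.17 there) and MET on the molecule scale (-0.09 with TMM, 0.16 there). By this rule directions turned on the ribosomal protein scale for KRT8 (0.10), KHSRP (0.19), FUBP1 (0.31), FUBP3 (0.12), ITGAV (0.14), PTK2 (0.22), MET (0.23), ACTB (0.0080) and CDKN2A (0.045). On the molecule scale they turned for ENO1 (0.10), KRT7 (0.018), KRT8 (0.24), KHSRP (0.16), FUBP1 (0.23), FUBP3 (0.067), ITGAV (0.031), GAPDH (0.15) and ACTB (0.25). Without NC 2 h replicate 1 they remained turned there for KHSRP (0.012) and FUBP1 (0.22), but not for ENO1 (-0.38), KRT7 (-0.33), KRT8 (-0.21), FUBP3 (-0.057), ITGAV (-0.0064), GAPDH (-0.42) or ACTB (-0.37). The NC minus KO difference of CFAP20DC ran over the leave-outs from -0.15, without NC 2 h replicate 2, to 6.93. The cause was not tested. With 2 libraries a group, small changes of low transcripts were not detectable at this depth.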
